A study of Homo sapiens with 6 samples.

Results

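FGF19 is a secreted growth factor, and the 7 genes described here are FGF19 itself, the receptor tyrosine kinases FGFR1, FGFR2, FGFR3 and FGFR4, the coreceptor gene KLB, and FGFBP1, which encodes a carrier protein of FGFs. They were found by gene name among the 50868 genes of the table. The set was chosen by looking at the same counts that are given below, so the values of these 7 genes are a description and carry no test. All samples were HCT116, an established human colorectal carcinoma line, transfected with 1 of 2 plasmids. The pcCon group (n = 3) received the empty pcDNA3.1(+) vector and the pcYY2 group (n = 3) received an expression vector for YY2, a zinc finger transcription factor that is a paralog of YY1. Both groups were transfected, and whether the YY2 vector has the same backbone as the empty one is not given in the sources used here. A transfected line holds a mixture of cells with and without plasmid, and the labels do not state whether the samples of a group came from separate cultures, so the errors below measure only the spread between these samples.

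FGF19 belongs to the endocrine FGFs, which bind heparan sulfate weakly and can travel in the blood. In the intestine it is made by enterocytes in response to bile acids, and in the liver it acts on FGFR4 together with β-Klotho, the product of KLB, to lower bile acid synthesis by CYP7A1. Activated FGF receptors phosphorylate the docking protein FRS2, which recruits GRB2 and feeds the RAS, RAF, MEK and ERK cascade. ERK in turn induces transcripts such as EGR1 and the feedback inhibitors of the Sprouty and DUSP families.

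YY2 had an FPKM, the count scaled to gene length and to the reads of the sample, of 2.16 ± 0.397 (SD, n = 3) in pcCon and of 11.2 ± 0.333 in pcYY2, a log2 fold change of 2.40 with a standard error (SE) of 0.135 and an adjusted p of 0.000759 in edgeR's quasi-likelihood test. This value sums plasmid-borne and endogenous YY2 transcripts, which a count per gene does not separate. YY1 differed by 0.18 on the log2 scale, with an adjusted p of 0.236. The samples held between 15158360 and 29572882 counted reads. The epithelial markers summed to 2110 to 2200 CPM (counts relative to all reads of a sample) in pcCon and to 2770 to 3190 CPM in pcYY2. Of 7 markers 6 were tested, and KRT8 and KRT19 were called higher. EPCAM, CDH1, KRT18 and CLDN7 were not called. CLDN7 was lower in each pcYY2 sample than in each pcCon sample, at 6.46 ± 0.372 against 7.53 ± 0.5 FPKM. VIL1 had 0 to 2 reads and was not tested. The summed markers of fibroblasts (25.5 to 28.8 CPM against 28.4 to 35.4 CPM, with COL1A2, DCN and LUM at 0), endothelium (0.396 to 1.87 against 0.816 to 1.89 CPM), immune cells (2.41 to 3.30 against 3.92 to 7.57 CPM) and hepatocytes (0.164 to 0.528 against 0.109 to 0.392 CPM, with TTR, CYP7A1 and CYP8B1 at 0) were low in both groups, with CD68 called higher in pcYY2 on 29 to 85 reads. COL1A1, at a mean of 29.4 CPM, made up most of the fibroblast sum and was not called. Among the immune markers, PTPRC and LYZ had 69 and 41 reads in pcYY2 sample 2. They had 1 and 14 reads in pcYY2 sample 1 and 6 and 0 in pcYY2 sample 3. The part of all these markers in the results below was not tested. In bulk RNA fewer cells of a kind cannot be told apart from less RNA per cell.

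FGF19 (ENSG00000162344, chromosome 11, 69698238 to 69704022, minus strand, 3 exons, GRCh38 with GENCODE 44) had the highest deposited FPKM of the 7 genes in both groups, and its level in pcYY2 was about 0.48 times that in pcCon. Its FPKM was 18.5, 17.8 and 17.4 in pcCon samples 1 to 3 and 8.13, 8.22 and 8.89 in pcYY2 samples 1 to 3. The groups were far apart, with every pcYY2 sample well below every pcCon sample. The means were 17.9 ± 0.544 and 8.42 ± 0.414 FPKM (SD, n = 3), and the log2 fold change was -1.06 with an SE of 0.0721. The counts behind these values ran from 305 to 823 reads, so that the counting error at the lowest count was 5.73%, while the coefficient of variation within a group was 3.04% in pcCon and 4.91% in pcYY2. Among the 15903 genes tested, FGF19 ranked 208 from the most negative log2 fold change and 331 by the size of the change. No other gene of the table overlapped its locus. In pcCon it ranked 1739 by FPKM among the tested genes.

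FGFBP1 (ENSG00000137440, chromosome 4, 15935577 to 15938740, minus strand, 3 exons) encodes a secreted protein that binds FGFs and releases them from the extracellular matrix. Its FPKM was 3.27, 4.15 and 2.86 in pcCon and 4.95, 4.95 and 4.76 in pcYY2. Each pcYY2 sample was above each pcCon sample, and the pcCon samples were spread much more widely than the pcYY2 samples. The means were 3.43 ± 0.659 and 4.89 ± 0.108 FPKM, a fold of 1.45 and a log2 fold change of 0.54 with an SE of 0.162. These values rest on 59 to 199 reads, with a counting error of 13.0% at the lowest count, and the coefficient of variation was 19.2% in pcCon and 2.20% in pcYY2. FGFBP1 was not among the genes called at an adjusted p of 0.05 or less.

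**Figure D1:**
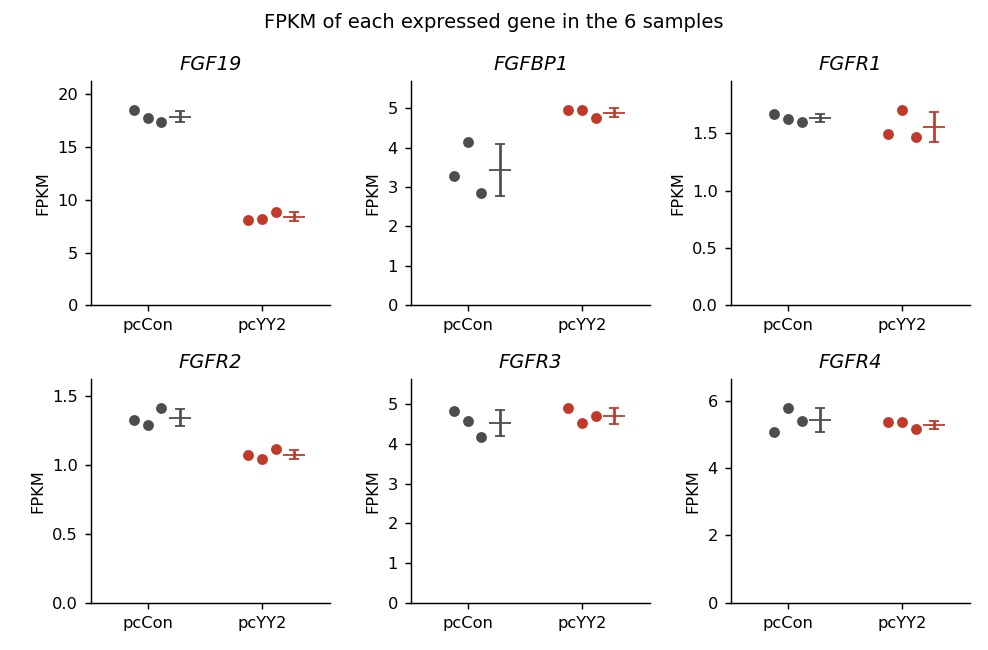
FPKM (vertical axes, starting at 0, with a scale of their own for each gene) of the 6 expressed genes in the 3 pcCon and the 3 pcYY2 samples. Points are samples in the order 1 to 3, and the cross beside them is the mean with its SD. The groups do not overlap for FGF19, FGFBP1 and FGFR2, and overlap for FGFR1, FGFR3 and FGFR4.

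Of the 4 receptors, FGFR2 was lower in each pcYY2 sample than in each pcCon sample, and the other 3 overlapped between the groups. FGFR2 (ENSG00000066468, chromosome 10, 121478332 to 121598458, minus strand), whose splice forms answer to different FGFs in epithelium and mesenchyme, had 1.32, 1.29 and 1.41 FPKM in pcCon and 1.07, 1.04 and 1.11 FPKM in pcYY2. The gap between the lowest pcCon and the highest pcYY2 sample was small beside that of FGF19. Its log2 fold change was -0.29 with an SE of 0.0763, or 0.82-fold, on 338 to 633 reads, and it was not called. The count sums all splice forms and cannot tell them apart.

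FGFR4 (ENSG00000160867, chromosome 5, 177086905 to 177098144, plus strand), the receptor most closely tied to FGF19, had 5.08, 5.78 and 5.40 FPKM in pcCon and 5.35, 5.36 and 5.15 FPKM in pcYY2. All 3 pcYY2 samples lay within the range of the pcCon samples. The fold was 0.997, with an SE of 0.067 on the log2 scale. FGFR3 (ENSG00000068078, chromosome 4, 1793293 to 1808872, plus strand) had 4.82, 4.58 and 4.16 FPKM in pcCon and 4.90, 4.51 and 4.70 FPKM in pcYY2. These samples overlapped as well, and the fold was 1.06 with an SE of 0.074 on the log2 scale.

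FGFR1 (ENSG00000077782, chromosome 8, 38400215 to 38468834, minus strand), a receptor for many of the paracrine FGFs, had 1.67, 1.62 and 1.6 FPKM in pcCon and 1.49, 1.70 and 1.47 FPKM in pcYY2. The second pcYY2 sample was above all pcCon samples and the other two were below them. The fold was 0.976, with an SE of 0.0735 on the log2 scale. A pseudogene, RPS20P22, lies on the same strand within the locus and held 2 to 31 reads against 857 to 1883 reads of FGFR1.

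**Figure D2:**
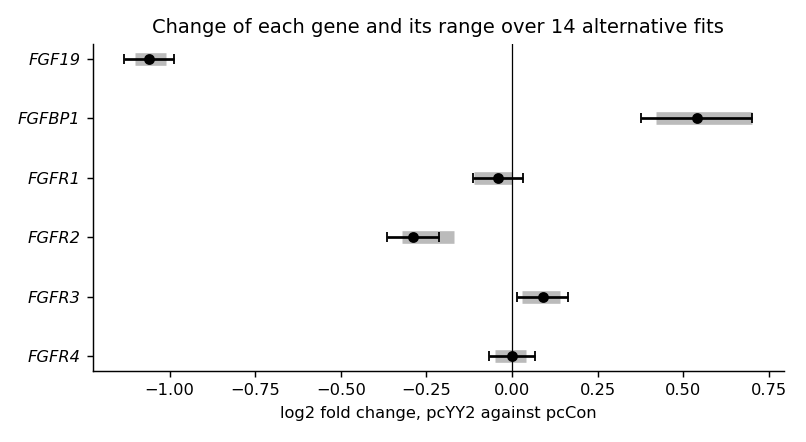
Log2 fold change of pcYY2 against pcCon (horizontal axis) for the 6 expressed genes. Points are the fitted values with 1 SE to each side, and grey bars span the values from 14 other ways of fitting the same counts. FGF19 stays between -1.10 and -1.01, and FGFR4 between -0.05 and 0.04.

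KLB (ENSG00000134962, chromosome 4, 39406930 to 39451533, plus strand, 5 exons), the coreceptor through which FGF19 binds FGFR4 with high affinity, had no read in any of the 6 samples, out of 114898126 reads in all. A count of 0 allows up to 3 reads in a sample, which is 0.101 to 0.198 CPM, or 0.0169 to 0.0330 CPM per kilobase of its canonical transcript. This limit covers counting error only. KL, which encodes α-Klotho, and LCTL, which encodes a further Klotho-like protein, were also at 0 in every sample. Of 9 genes within 200 kb of KLB, 8 were tested and none of them was called.

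Of the whole set, 6 of the 7 genes had reads and entered the test across all genes, 1 was called lower (FGF19) and 0 were called higher. Over all tested genes 7.17% were called, 3.41% as lower and 3.76% as higher. The groups did not overlap for 3 of the 6 genes, FGF19, FGFR2 and FGFBP1, where 33.2% of all tested genes showed no overlap. Nothing can be read from these shares, since the 7 genes were picked from the same contrast.

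The order of the receptors depended on the gene length used. Deposited FPKM put FGFR4 (5.42 ± 0.348 in pcCon) and FGFR3 (4.52 ± 0.331) above FGFR1 (1.63 ± 0.0323) and FGFR2 (1.34 ± 0.0614). The lengths behind these FPKM were 3.16, 2.22, 6.57 and 4.44 times those of the Ensembl canonical transcripts, respectively, but only 1.34 times for FGF19 and 1.01 times for FGFBP1. Per kilobase of canonical transcript, FGFR4 was again the highest in pcCon at 17.1 ± 1.10 CPM. FGFR1 and FGFR3 followed at 10.7 ± 0.213 and 10.0 ± 0.735 CPM per kilobase, with overlapping samples, and FGFR2 was the lowest at 5.96 ± 0.273 CPM per kilobase. FGFR4 was first and FGFR2 last on both scales, whereas FGFR1 and FGFR3 were only apart on the scale of the deposited FPKM. Between FGFR4 and FGFR3 the ratio of deposited FPKM was above 1 in all 6 samples, from 1.05 to 1.30.

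The summed level of the 4 receptors was 12.9 ± 0.348 FPKM in pcCon and 12.6 ± 0.189 FPKM in pcYY2. By FPKM the difference was no larger than the spread within pcCon. Per kilobase of canonical transcript the sum was 43.8 ± 0.885 CPM in pcCon and 42.2 ± 0.733 CPM in pcYY2. On that scale the groups did not overlap, at 43.1 to 44.8 and 41.3 to 42.8. These CPM were not divided by the TMM factors, the library scaling used in the fit. Those factors were 1.008 to 1.012 in pcCon and 0.9829 to 0.9948 in pcYY2, so no group difference is read from this small gap. FGFR4 made up 42.0% ± 2.22 of the summed FPKM in pcCon and 41.9% ± 0.567 in pcYY2. With canonical lengths these shares were 39.0% ± 2.00 and 39.6% ± 0.252. The share of FGFR2 was 10.4% ± 0.750 and 8.53% ± 0.375. The FPKM of FGF19 was 3.64, 3.09 and 3.22 times that of FGFR4 in pcCon and 1.52, 1.53 and 1.73 times in pcYY2, with no overlap. On canonical lengths the same ratio was 1.41 ± 0.122 and 0.678 ± 0.0488, so that FGF19 lay above FGFR4 in pcCon and below it in pcYY2 on this scale but above it in both groups by deposited FPKM.

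**Figure D3:**
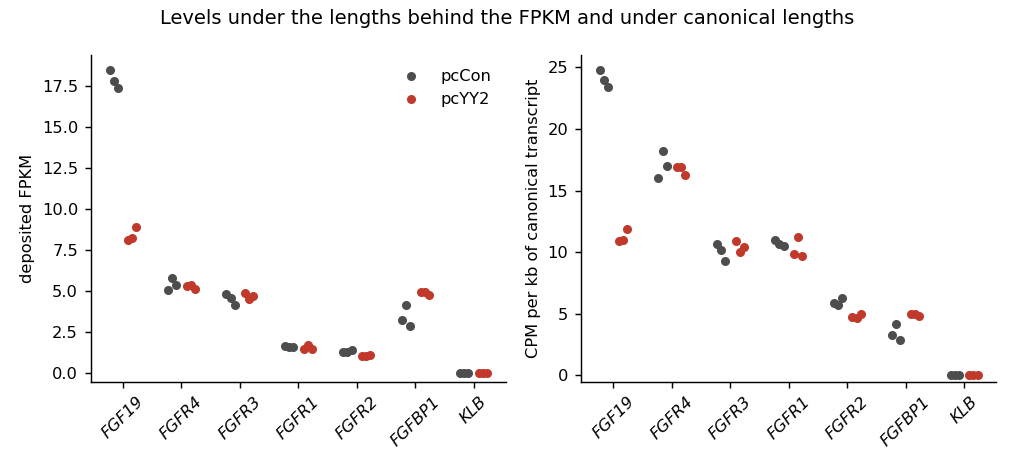
Level of the 7 genes in each sample, as deposited FPKM (left axis) and as CPM per kilobase of Ensembl canonical transcript (right axis). Points are the 3 samples of each group, with pcCon in grey and pcYY2 in red. FGF19 is first in pcCon on both scales, FGFR1 reaches the level of FGFR3 only on the right, and KLB is at 0.

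Promoter windows (RefSeq, GRCh38.p14, 250 bases before to 50 after each start) were at hand for 5 of the 7 genes, in 10 windows. No window was at hand for FGF19 or FGFR1, so their promoters were not searched. The windows of FGFBP1, whose samples were higher in pcYY2, and of the most upstream FGFR2 start, whose samples were lower, are printed to show how far these promoters differ in base composition. They are written 5′ to 3′ with each CG dinucleotide in capitals and lie at chr4:15938691-15938990 and chr10:121598395-121598694, both on the minus strand.
FGFBP1: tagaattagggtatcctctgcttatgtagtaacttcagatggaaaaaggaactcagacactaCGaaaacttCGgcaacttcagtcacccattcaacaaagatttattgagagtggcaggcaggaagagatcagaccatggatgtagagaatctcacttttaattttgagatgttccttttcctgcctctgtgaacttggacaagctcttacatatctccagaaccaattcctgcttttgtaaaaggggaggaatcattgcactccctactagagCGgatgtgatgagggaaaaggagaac
FGFR2: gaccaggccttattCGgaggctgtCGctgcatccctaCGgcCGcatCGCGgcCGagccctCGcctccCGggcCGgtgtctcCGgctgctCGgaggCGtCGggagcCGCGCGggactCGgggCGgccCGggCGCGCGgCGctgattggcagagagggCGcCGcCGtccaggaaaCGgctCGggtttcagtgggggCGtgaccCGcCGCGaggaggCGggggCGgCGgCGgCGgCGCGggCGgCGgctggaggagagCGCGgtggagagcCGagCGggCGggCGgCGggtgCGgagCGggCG
The FGFBP1 window holds 3 CG dinucleotides and 42.0% G and C, and the FGFR2 window holds 52 and 79.3%, where the medians over 35116 windows are 14 and 58.7%. The other 4 FGFR2 windows hold between 5 and 8. The window of KLB holds 6 CG dinucleotides, that of FGFR3 holds 51, and the pair of FGFR4 windows holds 30 and 2. The letters GCCAT, the core of the site bound by YY1 and YY2, were sought on both strands and occur in none of the 10 windows, against 37.8% of all windows. TGATGNAA, the site of ATF4 with a C/EBP partner, occurs in 1 of them, a downstream FGFR2 window, against 3.62% of all windows. A match of letters is no sign of binding, and its absence from a window is no sign against it.

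Besides the 7 genes, 140 further genes of the FGF system were sorted into 6 lists, of which 99 were tested. They were described by their counts, since the lists were drawn up with results of these data known. Of the 99 genes, 2 were called higher and 12 lower in pcYY2, which is 14.1% beside 7.17% of all tested genes. Their median log2 fold change was -0.11 and 72 of 99 values were negative, where the median of all tested genes was 0.00 and 7970 of 15903 were negative.

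**Figure D4:**
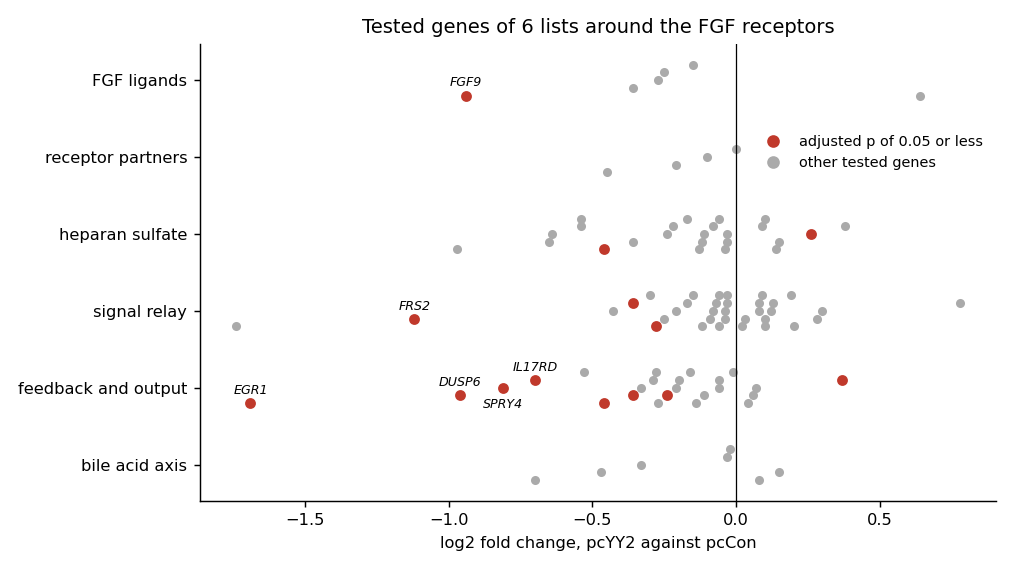
Log2 fold change of pcYY2 against pcCon (horizontal axis) for the 99 tested genes of the 6 lists (vertical axis). Each point is a gene, in red at an adjusted p of 0.05 or less. Of the 24 genes of feedback and output, 20 lie left of 0.

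The other FGF ligands were mostly low or at 0. Of 21, 5 had no read (FGF4, FGF10, FGF13, FGF14 and FGF16) and 6 were tested, of which 1 was called lower, beside 3.41% of all genes, and 0 higher, with a median log2 fold change of -0.26. FGF9, a paracrine ligand with high affinity for FGFR3, had 2.53, 3.89 and 3.37 FPKM in pcCon and 2.05, 1.52 and 1.45 FPKM in pcYY2. Its groups did not overlap, though both were wide, and the log2 fold change was -0.94 with an SE of 0.196 and an adjusted p of 0.037 in edgeR. The adjusted p of FGF9 was above 0.05 in 5 of 14 other fits. FGF2, a paracrine ligand that lacks a classical signal peptide, had 1.25 ± 0.101 FPKM in pcCon and 0.954 ± 0.154 in pcYY2, with an adjusted p of 0.14. FGF11, FGF17, FGF18 and FGF22 had log2 fold changes of -0.27, -0.25, -0.15 and 0.64 with adjusted p of 0.622, 0.551, 0.799 and 0.329. FGF21, the other endocrine ligand that uses KLB, had 0 to 3 reads per sample.

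Among 11 receptor partners, 6 had no read (KL, LCTL, FLRT1, FLRT2, CDH2 and ANOS1), 4 were tested and none was called in either direction, against 7.17% of all genes. FGFRL1, a receptor without a kinase domain, split within both groups at 7.83, 2.79 and 7.29 FPKM in pcCon and 7.50, 7.12 and 2.90 FPKM in pcYY2. Its second pcCon sample and its last pcYY2 sample were far below the others of their group, and the SE of its log2 fold change was 0.455. FGFBP3, FLRT3 and NCAM1 had log2 fold changes of -0.21, -0.45 and -0.10 with adjusted p of 0.628, 0.216 and 0.87.

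Heparan sulfate chains present FGFs to their receptors, and 24 of 31 genes for their core proteins and enzymes were tested. The median log2 fold change was -0.12, and 1 gene was called in each direction, which is 8.33% of those tested beside 7.17% of all genes. GPC1, a membrane-anchored heparan sulfate proteoglycan, was 12 ± 0.651 FPKM in pcCon and 14.2 ± 0.657 in pcYY2, with a log2 fold change of 0.26 and an adjusted p of 0.0491, a call that was lost in 12 of 14 other fits. HSPG2, which encodes the matrix proteoglycan perlecan, was 4.29 ± 0.226 FPKM in pcCon and 3.04 ± 0.13 in pcYY2, with a log2 fold change of -0.46 and an adjusted p of 0.0104. SULF2, an extracellular sulfatase, and HPSE, heparanase, had log2 fold changes of -0.64 and -0.36 with adjusted p of 0.0886 and 0.0692.

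In the relay from receptor to ERK and AKT, all 34 genes were tested, 3 were called lower and 0 higher, which is 8.82% called beside 7.17% of all genes, and the median log2 fold change was -0.04. FRS2, the docking protein that couples FGF receptors to GRB2, had 2.26, 2.27 and 2.47 FPKM in pcCon and 1.04, 1.01 and 1.11 FPKM in pcYY2. The groups were wide apart with little spread within each, as for FGF19. The fold was 0.461. Its log2 fold change was -1.12 with an SE of 0.0797 and an adjusted p of 0.00144, on 248 to 645 reads. SHC1, an adaptor shared by many receptors, was 18.7 ± 1.09 FPKM in pcCon and 15.0 ± 0.193 in pcYY2, with an adjusted p of 0.0365. Its locus overlaps PYGO2 on the same strand, which held up to 1984 reads, so reads of the shared part are uncertain. PIK3CB, a catalytic subunit of PI3K, had a log2 fold change of -0.36 with an adjusted p of 0.0323, and the adaptor CRKL one of -0.21 with an adjusted p of 0.0716. GRB2, named after its values were seen as the partner of FRS2, ranged from 8.86 to 17.1 FPKM in pcCon and from 11.6 to 32.6 FPKM in pcYY2, with an adjusted p of 0.24.

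Feedback inhibitors and ERK-induced transcripts were the list with the most calls, with 7 of 24 lower and 1 higher, or 33.3% beside 7.17% of all genes, and a median log2 fold change of -0.23. These transcripts answer to many receptors besides those of FGFs. EGR1, an immediate early transcription factor, was 16.6 ± 0.779 FPKM in pcCon and 5.01 ± 0.164 in pcYY2, with a log2 fold change of -1.69, an SE of 0.0735 and an adjusted p of 0.000174. DUSP6, the cytoplasmic phosphatase of ERK, had 22.8, 22 and 22.2 FPKM in pcCon and 11.1, 10.1 and 12.5 FPKM in pcYY2. SPRY4, a Sprouty inhibitor of receptor tyrosine kinase signalling, had 16.7, 15.8 and 15.4 FPKM in pcCon and 8.64, 9.49 and 8.59 FPKM in pcYY2. For both genes the groups lay well apart, and the log2 fold changes were -0.96 and -0.81, each with an adjusted p of 0.00218. IL17RD, also known as SEF, an inhibitor of FGF receptor signalling, had a log2 fold change of -0.70 with an adjusted p of 0.00639. The other Sprouty and DUSP genes of the list, SPRY1, SPRY2, SPRY3, DUSP4, DUSP5 and DUSP7, were not called. Neither were ETV1, ETV5, FOS, FOSL1, MYC and PHLDA1. These uncalled genes were named after their values were seen.

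Of the remaining called genes of this list, CCND1, which encodes cyclin D1, is described with the neighbours of FGF19. ETV4, IER3 and CIC were named after their values were seen. IER3, an immediate early gene, had a log2 fold change of -0.46 with an adjusted p of 0.0091. ETV4, an ETS factor, had one of -0.36 with an adjusted p of 0.0232, and its locus overlaps DHX8 on the opposite strand with up to 3944 reads. Whether the counting used strand is not given in the sources used here, so reads of ETV4 and DHX8 may not have been told apart. CIC, a repressor of ETS genes that ERK inactivates, was called higher, with a log2 fold change of 0.37 and an adjusted p of 0.0208. When each of the 6 samples was left out in turn, the calls of HSPG2, FRS2, SPRY4, IL17RD, DUSP6, EGR1 and IER3 held each time. GPC1 and SHC1 were then never called, PIK3CB was called only without pcCon sample 2, ETV4 only without pcYY2 sample 1, FGF9 only without pcCon sample 1 or pcYY2 sample 1, and CCND1 and CIC only without pcYY2 sample 1 or 2.

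The bile acid axis through which FGF19 acts in gut and liver was mostly at 0 in these cells. Of 19 genes, 10 had no read in any sample, among them NR1H4, which encodes the bile acid receptor FXR, its target NR0B2, the transporters SLC10A1, SLC10A2, SLC51A, SLC51B and ABCB11, and the enzymes CYP7A1 and CYP8B1. Of the 7 tested none was called in either direction, against 7.17% of all genes, and the median log2 fold change was -0.03. NR5A2, RXRB, VDR and FABP6 had log2 fold changes of -0.70, 0.15, 0.08 and -0.33 with adjusted p of 0.233, 0.503, 0.61 and 0.613.

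On chromosome 11, FGF19 lies in a row with CCND1 and ORAOV1 (named LTO1 in GENCODE 44) at lower coordinates and FGF4 and FGF3 at higher ones, and 5 genes of the table lie within 200 kb of it. CCND1, the regulator of the G1 to S transition, had 57.7, 59.0 and 59.2 FPKM in pcCon and 49.6, 46.4 and 49.9 FPKM in pcYY2. Its groups did not overlap, but its log2 fold change of -0.24 (SE 0.0424, adjusted p = 0.0233) was much smaller than that of FGF19. It overlaps ORAOV1 on the opposite strand, which had up to 424 reads against 5349 to 9650 of CCND1. ORAOV1 itself had a log2 fold change of 0.35 with an SE of 0.33 and an adjusted p of 0.548. FGF4 had no read, and FGF3, at 106 kb, had between 0 and 4. Around all 7 genes, 31 of 56 neighbours were tested, and 2 were called, CCND1 as lower and TACC3, near FGFR3, as higher, with a log2 fold change of 0.32 and an adjusted p of 0.0203. That is 1 in each direction, beside 3.41% and 3.76% of all tested genes. The call of TACC3 was lost without pcCon sample 2, pcCon sample 3 or pcYY2 sample 3.

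The genes whose pattern over the 6 samples was most like that of FGF19 were sought among 11726 genes with a mean CPM of at least 5, by the root mean square difference of log2 CPM centred on each gene. The nearest were ABCC3, an exporter of organic anions including bile acid conjugates, at 0.0521 and PCK2, the mitochondrial phosphoenolpyruvate carboxykinase, at 0.0523. FRS2 followed at 0.0702, DUSP6 at 0.0728 and RBM24, an RNA-binding protein, at 0.0768. The median over all genes was 0.544. Their own log2 fold changes were -1.10 for ABCC3, -1.01 for PCK2 and -1.0 for RBM24. Likeness of this kind mainly picks out genes with a fold change of the same size and little spread. The 4 receptors were no nearer than 0.385 (FGFR2), with FGFR1 at 0.509, FGFR4 at 0.527 and FGFR3 at 0.569. FGFBP1 was at 0.791, and both FGFR3 and FGFBP1 lay farther away than the median gene.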

How the data were processed

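HCT116 cells transfected with pcCon or pcYY2 (n = 3 each) had been profiled by RNA-Seq of polyadenylated RNA. According to the labels' processing notes the tools included TopHat, Bowtie2 and HTSeq, and the methods name GRCh38. The table deposited by the authors holds raw counts per gene as whole numbers, without normalization. It also holds FPKM, scaled to a fixed length per gene and to the sample's total count, as was checked on the values. The methods name Cufflinks for FPKM, and how that step relates to the deposited values is not given in the sources used here. Whether the counting used strand is not given in the sources used here.

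Counts were tested with edgeR 4.0.16 (R 4.3.3), using TMM, the quasi-likelihood F test and genes with a mean CPM of at least 0.5 over the 6 samples (15903 genes). Genes were called at an adjusted p (Benjamini-Hochberg) up to 0.05. Log2 fold changes are pcYY2 against pcCon, and their SE was obtained by dividing them by the root of F. DESeq2 1.42.0 and limma 3.58.1 (on log2(FPKM + 1)) were alternatives. Canonical lengths came from GENCODE 44, an alternative chosen after seeing the data. Across genes, the log2 CPM of samples correlated at 0.9868 to 0.9886 inside groups and at 0.9823 to 0.9849 between them.

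The 7 genes and all lists were chosen with earlier results of these data known. The genes named were the 7, YY2 and YY1, and at most the 4 genes of each list with the smallest p. Every tested FGF family gene and receptor partner was named as well. So were the tested neighbours of FGF19 within 200 kb and the 5 genes most like FGF19. Others are said to have been named after their values were seen.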

Additional observations from a re-analysis of the deposited data

How the results depend on the processing

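FGF19 kept its direction and its call in all 14 alternative fits, at -1.10 to -1.01 on the log2 scale. The number of called genes among the 7 rose from 1 to 2 with a minimum mean FPKM of 1 (FGFR2 added) and to 3 when adjusted p up to 0.1 were called. Genes of the 6 lists called higher fell from 2 to 1 with a minimum mean FPKM of 1 or of 0.1, with no filter, with upper quartile scaling and with limma, and to 0 or 1 with 1 sample left out. Those called lower fell from 12 to between 7 and 10 with 1 sample left out, lowest without the third pcCon or the third pcYY2 sample. With the replicate block the 3 counts were 0 higher, 6 lower and 0 called neighbours, in place of 2, 12 and 2, and DUSP6, EGR1, FRS2, IER3, IL17RD and SPRY4 were called in every fit. Neighbours called ranged from 0 to 3 with 1 sample left out. Whether same-numbered samples were handled together is not given in the sources used here. Over all tested genes, the deviations of same-numbered samples correlated at -0.00608, -0.0306 and -0.0038. A correlation over all genes cannot show whether some genes shared a batch. Over all genes, 598 were called higher and 543 lower, against 62 and 52 with the replicate block and 428 and 681 with upper quartile scaling. The share of FGFR4 among the receptors in pcCon was 39.0% with canonical lengths in place of 42.0%, and 41.2% to 43.2% with 1 sample left out. Uncalled values changed sign for FGFRL1 (0.01 with a minimum mean FPKM of 0.1, 0.02 with the block, -0.34 to 0.32 with 1 sample left out) and, with 1 sample left out, for FGFR4 (-0.05 to 0.04, from a value near 0), FGF11 (-0.48 to 0.07), FGF18 (-0.30 to 0.09), FGFBP3 (-0.38 to 0.07), NCAM1 (-0.37 to 0.09) and FABP6 (-0.52 to 0.09), and the cause was not tested. The depth limits FGFBP1 most among the expressed genes of the 7.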
